A study of Mus musculus with 6 samples.

Results

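Solute carriers are the membrane transporters named Slc, a family number, the letter a and a member number. They were picked from the array's probe table as every probe whose single gene symbol has that form, which gave 208 probes for 154 genes among 15114 probes naming 1 gene each (9107 genes). Symbols with a further suffix were left out, among them the scaffold gene Slc9a3r1. All 208 matched the RefSeq gene table by Entrez identifier. The arrays measured kidney RNA of male Swiss albino mice aged 8 to 10 weeks, 4 per group. Treated mice had received amodiaquine at 120 mg/kg (Amodiaquine), sulfadoxine at 300 mg/kg with pyrimethamine at 15 mg/kg (SP, spelled Sulfodoxine-Pyrimethamine in the labels), or both at these doses (Amodiaquine+SP). These are antimalarial drugs, and kidneys were taken about 24 h later. On each two-colour array, treated RNA in one dye was set directly against RNA of mice given DMSO vehicle in the other, with treated RNA in Cy5 on replicate 1 and in Cy3 on replicate 2 of each treatment. The labels do not say whether the RNA of the mice was pooled or whether one vehicle RNA served several arrays.

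The kidney filters blood and then takes back most of the solutes through solute carriers in the tubule wall. In the proximal tubule these carry sugars, amino acids, phosphate, organic ions and carnitine. In the thick ascending limb and the distal nephron they carry sodium, potassium and chloride, and in the medulla they handle urea and the organic osmolytes that protect cells from high salt. A large family of its own, Slc25, sits in the inner mitochondrial membrane. In bulk kidney RNA, fewer cells of a type and less RNA per cell cannot be told apart.

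The 6 files held 4 distinct scans. Within SP and within Amodiaquine+SP the replicate files shared 28.2% to 41.9% of their exact intensities per dye, against at most 0.122% for Amodiaquine, so each of these pairs was taken as 1 scan measured with differently placed spot grids. Since such a scan carries 2 opposite dye labels, its ratios are given as Cy5 over Cy3, with no direction of treatment. The file with more blocks in register stood for each scan, which left 8 readings (4 scans, 2 dyes). The grid was in register with the other arrays in 22, 33, 35 and 35 of the 48 spot blocks of Amodiaquine replicate 1, Amodiaquine replicate 2, SP and Amodiaquine+SP, and only those blocks were read. A reading is given as the percentile of background-corrected brightness among all named probes. It counts as above background where signal over noise reached 2 and the recorded background exceeded 0. In Cy3 of Amodiaquine replicate 1 the recorded background was 0 at 7079 of 23040 spots, which therefore could not count. Brightness depends on the probe as well as on the RNA, so percentiles do not rank the genes' transcript levels. A group's median in a reading covers only those of its probes in register there, so it covers different probes from reading to reading.

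The kidney label was set against markers. The block order that names the probes had been chosen on brightness, proximal tubule markers included. The brightness of these markers is therefore no independent check of the label. Probes of the proximal tubule list (8 probes, among them Lrp2, Miox and Ass1) had a median percentile of 88.8 averaged over the 8 readings, and thick limb and distal markers (6 probes, among them Umod) had 81.7. Within these lists probes differed. Calb1 probes of the thick limb and distal list had medians of 86.7, 76.1, 58.0 and 25.6. Lrp2 probes had 93.0, 83.3 and 35.8, and Gatm had 58.1. Glomerular and endothelial markers stood at 39.9 (7 probes) and muscle and brain markers at 46.2 (3 probes). Over the readings that held them, blood markers (2 measured probes) stood at 54.2 and the collecting duct marker Scnn1b (1 probe) at 59.1. Of 4 liver probes, Alb had a median of 81.8 and Apoa1 of 78.5, while Fga and Ttr were at 39.9 and 37.1. The part of liver-marker signal in the values of the solute carriers was not tested.

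As a whole, solute carrier probes were about as bright as other probes. Their median percentile averaged 51.9 ± 2.93 (SD over 8 readings, which share probes and, in pairs, an array), with a range of 46.9 to 56.7 around the value of 50 that all named probes have by construction. Of 1066 readings of members, 187 (17.5%) were above background, against 13.2% of 78752 readings of all named probes, and 26.9% had a corrected brightness of 0, against 26.4%. In register in at least 1 scan were 204 of the 208 probes; the other 4 (Slc32a1, Slc37a1, Slc5a11 and 1 of 3 Slc5a3 probes) all lay in 1 block that was not in register in any of the 4 scans. Of the 204 measured probes, 58 were above background in at least 1 reading and 146 in none, and 38 probes of 33 genes were above it in both dyes of at least 1 scan.

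By their median, transporters on the tubule lists were brighter than the other solute carriers in most readings. The block order behind the names had been chosen on brightness, proximal tubule markers included. The lists were chosen with earlier results of these data known. The difference is therefore not independent of these choices. The distal list also takes in the medulla and holds 2 probes of Slc14a1, the urea transporter of the descending vasa recta and of red cells. The difference without these probes was not computed. The lists of proximal and distal tubule transporters held 37 probes of 29 genes, of which 16 to 29 were in register in a given reading. Their median percentile averaged 66.8 ± 10.4 (SD, 8 readings). For the other 171 probes, with 74 to 127 in register, it averaged 50.4 ± 3.34. With displaced blocks moved back to their place, 35 to 37 tubule probes were read and the averages were 61.6 ± 7.05 and 49.5 ± 2.63. In the blocks in register the difference averaged 16.5 ± 12.2 percentile points and was positive in 7 of 8 readings. It ran from 7.84 in Cy5 of Amodiaquine replicate 2 to 32.9 in Cy5 of Amodiaquine+SP, and was -4.67 in Cy5 of SP. Taken probe by probe the gap was smaller: the middle probe of the tubule lists had a median of 53.2 and the middle probe of the others 46.1. At percentile 75 or above were 12 of 36 measured tubule probes by their median, against 36 of 168 other solute carrier probes and 19.5% of all named probes. Of tubule readings, 23.9% were above background, against 16.2% of those of the other solute carriers. No test over the probes was made. Tubule transport genes outside the family (61 probes of 27 genes, such as Atp1b1, a subunit of the sodium pump, and Umod, uromodulin) averaged 60.8 ± 9.56.

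**Figure D1:**
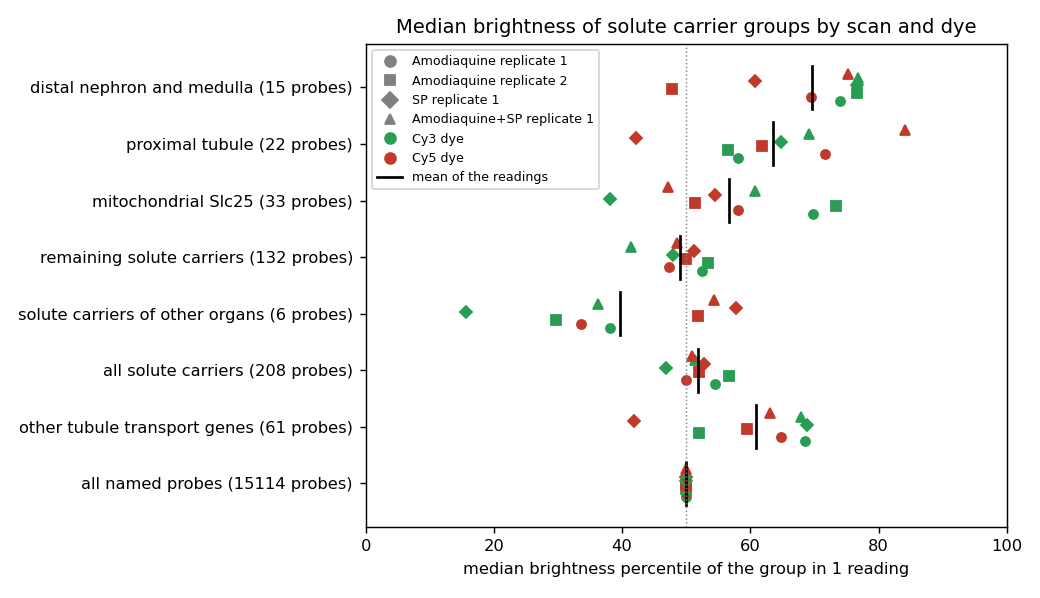
Median brightness percentile (x axis) of each group of probes in each of the 8 readings, with 1 marker shape per scan, green for Cy3 and red for Cy5; the black bar is the mean of the readings and the dotted line marks percentile 50. The proximal tubule group averaged 63.5 and the distal and medullary group 69.7, both with wide spread. The remaining solute carriers averaged 49.0, and those of other organs, with 1 to 4 probes a reading, 39.6.

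In the proximal tubule group (22 probes, 19 genes), 4 probes were above background in both dyes of at least 1 scan. Slc7a7 is the light chain of the basolateral exporter of cationic amino acids, the gene of lysinuric protein intolerance. Its percentiles in Cy3 and Cy5 were 96.9 and 97.5 in Amodiaquine replicate 1, 97.8 and 98 in Amodiaquine replicate 2, 96.6 and 97.1 in SP, then 81.7 and 97.8 in Amodiaquine+SP. It was above background in 7 of 8 readings, and the Cy3 reading of Amodiaquine+SP stood apart on the low side. Slc27a2, a fatty acid transport protein that also activates very long chain fatty acids, stood at 99.1 and 96.3 in Amodiaquine replicate 2, 95.0 and 95.3 in SP, then 97.1 and 96.7 in Amodiaquine+SP. All 6 of its readings were above background. Slc22a5, the sodium-coupled carnitine importer OCTN2, stood at 87.5 and 90.6, 93.0 and 93.6, and 91.9 and 92.3 in the same scans, above background in 5 of 6 readings.

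Slc6a19, the apical importer of neutral amino acids that is lost in Hartnup disorder, differed more between scans. Its percentiles were 91.5 and 90.9 in Amodiaquine replicate 1 and 90.9 and 90.9 in Amodiaquine replicate 2, all above background. In SP they were 15.6 and 83.1 and in the Amodiaquine+SP scan 76.7 and 85.5, none above background.

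The other bright proximal probes were less firmly measured. Slc37a4, the glucose-6-phosphate transporter of the endoplasmic reticulum, was in register in 1 scan only, at 85.3 and 90.3. Slc47a1, the apical exporter of organic cations MATE1, had readings of 67.9, 42.2, 82.8 and 90.6, of which 1 was above background. Slc3a2, the heavy chain that partners Slc7a7, ran from 15.6 to 90.1 and was above background in 1 of 8 readings. Slc6a13, a transporter of GABA and betaine, kept between 57.3 and 84.2 without passing the threshold.

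Many transporters of sugars, urate, peptides and glutamate gave no signal above background. The glucose transporter Slc2a2 had a median of 63.7, the urate transporter Slc2a9 of 39.1 and the fructose transporter Slc2a5 of 30.8. The probes of Slc7a8, an exchanger of neutral amino acids, stood at 47.8 and 29.3, and that of Slc1a1, the glutamate importer, at 24.9. Both probes of Slc15a2, the peptide transporter PEPT2, lay near the floor with medians of 15.0 and 10.5. A corrected brightness of 0 takes a percentile of 8.88 to 15.6 depending on the reading, so such low values have no order. A low reading bounds what the probe detected and does not show that the gene was silent.

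In the distal and medullary group (15 probes, 10 genes), the taurine transporter Slc6a6, which loads an organic osmolyte, was above background in every reading. Its percentiles in Cy3 and Cy5 were 94.4 and 95.4 in Amodiaquine replicate 1, 83.5 and 96.2 in Amodiaquine replicate 2, 96.3 and 98 in SP, then 97.9 and 97.9 in Amodiaquine+SP. Its other probe, in register in 1 scan, was at 18.0 and 47.8. Slc5a3, the importer of the osmolyte myo-inositol, was above background in all 4 readings of the amodiaquine scans, at 91.0, 86.5, 91.7 and 89.7. None of its readings passed in SP, at 84.9 and 61.0, or in Amodiaquine+SP, at 84.1 and 87.8. These readings are of 1 of 3 Slc5a3 probes. With displaced blocks moved back, the medians of the 3 ran from 30.3 to 88.0.

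The urea transporters were bright too. Slc14a1, the urea transporter of the descending vasa recta and of red cells, stood at 98.9 and 92.5 in Amodiaquine replicate 1, 99.2 and 92.8 in Amodiaquine replicate 2 and 94.5 and 89.1 in SP. Cy3 was the brighter dye in all 3 scans. Under a second register definition, by mean correlation with the other arrays, the SP readings of this probe would count and the amodiaquine readings would not. A second Slc14a1 probe had a median of 73.6, without a reading above background. Slc14a2, the urea transporter of the inner medullary collecting duct, ran from 12.1 to 97.2 with a median of 86.3 and was above background in 1 of 6 readings.

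Among the salt transporters, Slc12a1, the sodium-potassium-chloride cotransporter of the thick ascending limb and the target of loop diuretics, had readings far apart. It was above background in both dyes of Amodiaquine replicate 2 (87.8 and 84.5), below it in Amodiaquine replicate 1 (39.9 and 82.9), and at 15.6 and 14.4 in Amodiaquine+SP, where the corrected brightness was 0. Under the second register definition its block was 1 column off in these 3 scans, in one direction on the amodiaquine arrays and in the other in Amodiaquine+SP, and none of these readings would count. The 2 probes of Slc12a2, the secretory form of the same cotransporter, had medians of 44.3 and 34.3, and that of Slc12a7, a potassium-chloride cotransporter, 35.2. Slc41a3, a magnesium transporter, stood at 42.1. The bicarbonate transporters Slc4a1, the anion exchanger of red cells and intercalated cells, and Slc4a8 both had a median of 15.6.

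**Figure D2:**
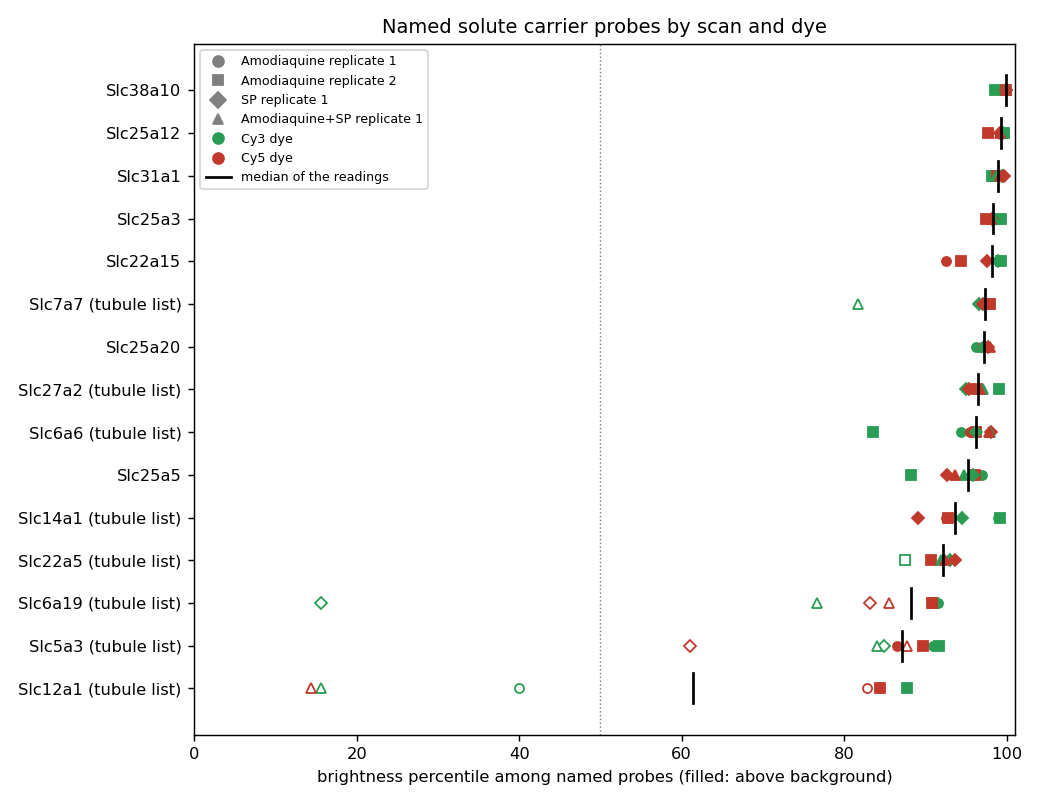
Brightness percentile (x axis) of the 10 brightest solute carrier probes by median and of the tubule probes above background in both dyes of at least 1 scan, with 1 marker per scan and dye, filled where above background; the black bar is the median. Slc7a7, Slc27a2 and Slc6a6 stayed above percentile 80, whereas Slc12a1 ran from 14.4 to 87.8.

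Of the 6 probes (6 genes) of transporters known from other organs, 5 were in register in at least 1 scan and Slc32a1 in none. The group's median percentile averaged 39.6 ± 14.2 over the 8 readings, and none of its 22 probe readings was above background. With displaced blocks moved back, all 6 probes were read and the average was 43.1 ± 18.5, with medians of 15.8 to 68.9 by reading. In Cy3 of Amodiaquine replicate 1 that median was 65.6, with 1 probe above background and 3 at percentile 75 or above, so the low position rested on the blocks in register. Slc12a5, the neuronal potassium-chloride cotransporter, had a median of 48.4, the vesicular monoamine transporters Slc18a1 and Slc18a2 of 40.4 and 36.0, the glial glutamate transporter Slc1a3 of 36.3, and Slc6a17, a neuronal vesicle transporter, of 17.5. Between 1 and 4 of these probes were in register in a given reading.

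Mitochondrial carriers were split between very bright and dim probes. The Slc25 family had 33 probes for 24 genes, a median percentile of 56.6 ± 11.6 over the readings, and 25.0% of its 184 readings above background. Of its probes, 8 of 7 genes were above background in both dyes of at least 1 scan, and the medians of single probes ran from 15.0 to 99.4. Slc25a12, the aspartate-glutamate carrier of the malate-aspartate shuttle, stood at 99.7 and 97.7 in Amodiaquine replicate 2, 99.5 and 99.2 in SP, then 99.7 and 99.1 in Amodiaquine+SP. Slc25a3, which brings phosphate to ATP synthase, stood at 99.3 and 97.5, 98.4 and 98.2, and 98.5 and 98 in these scans. Slc25a20, the carnitine-acylcarnitine exchanger of fatty acid oxidation, kept between 96.2 and 97.9 and was above background in 6 of 6 readings. Slc25a5, an exchanger of ADP and ATP, kept between 88.2 and 97.0 in all 8 readings, each above background.

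The glutamate carrier Slc25a22, the dicarboxylate carrier Slc25a10 and the oxoglutarate carrier Slc25a11 followed with medians of 94.5, 93.6 and 83.1. Each of these had at least 1 reading that fell out of line: 12.1 for Slc25a22 in Cy5 of Amodiaquine replicate 2, 33.5 for Slc25a10 in Cy3 of the same scan, and 15.6 for Slc25a11 in Cy3 of SP. The citrate carrier Slc25a1, at a median of 16.8, and Slc25a39, at 15.0, were among the dim members of the family.

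Of the remaining 132 probes (95 genes), 22 probes of 18 genes were above background in both dyes of at least 1 scan, and 14.3% of their readings were above it. The brightest of all members was Slc38a10, a member of the amino acid transporter family that carries glutamine, at 98.6 and 99.9 in Amodiaquine replicate 2, at least 99.9 in both dyes of SP, and 99.9 and 99.9 in Amodiaquine+SP. Slc31a1, the high-affinity copper importer CTR1, stood between 98.2 and 99.6, and Slc22a15, a transporter of organic cations and zwitterions, between 92.5 and 99.2. In Slc22a15, as in Slc14a1, Cy3 was the brighter dye in all 3 scans. Its amodiaquine readings, like those of Slc14a1, would not count under the second register definition.

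Families differed in their middle brightness. Over the 16 families with at least 5 probes, the median of the probes' medians ran from 15.6 to 80.1. Slc24, whose 5 probes are all for Slc24a3, a sodium-calcium-potassium exchanger, stood at 80.1, with probes from 15.6 to 93.5. The zinc importers of Slc39 (10 probes, 6 genes) stood at 76.5, with probes from 11.4 to 94.0. With displaced blocks moved back their order turned, to 69.2 for Slc24 and 75.9 for Slc39. Among these, Slc39a6 had medians of 94.0 and 93.3 on its 2 probes, Slc39a7 of 89.7 and 81.4, and Slc39a1 of 92.6. The lowest was Slc4, the bicarbonate transporters, at 15.6 over 5 probes, and at 24.6 with displaced blocks moved back. Even so, Slc4a2, a widely expressed anion exchanger, had a median of 93.7 in the 1 scan that measured it. The glucose transporter family Slc2 was low too, at 32.2 over 11 probes, with Slc2a1 the highest at 83.9. These families were singled out after their values were seen. The 5 lowest medians, at 10.5 to 13.3, were of probes for Slc15a2, Slc11a2, the iron importer DMT1, Slc39a10, Slc6a15 and Slc22a17. Their readings were mostly at a corrected brightness of 0. The percentile of that floor depends on the reading, so these probes are not ranked below others at the floor.

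Probes of 1 gene often disagreed. With each displaced block moved back to its place and no minimum on the dyes' rank correlation, an alternative that recovers more values, 41 genes had several measured probes, and their brightest and dimmest probe lay 30.2 percentiles apart in the middle gene. The gap was under 20 in 16 genes and over 40 in 13. Slc25a3 ran from 15.4 to 98.4, Slc25a12 from 20.9 to 99.3, Slc38a10 from 25.0 to 99.9 and Slc6a6 from 32.0 to 96.3. Slc14a1 and Slc39a7, by contrast, had all their probes above percentile 75. The order of members was shared only in part between readings, with Spearman correlations of 0.27 to 0.67 (median 0.44) over 28 pairs of readings. These describe the same probes on the same arrays.

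**Figure D3:**
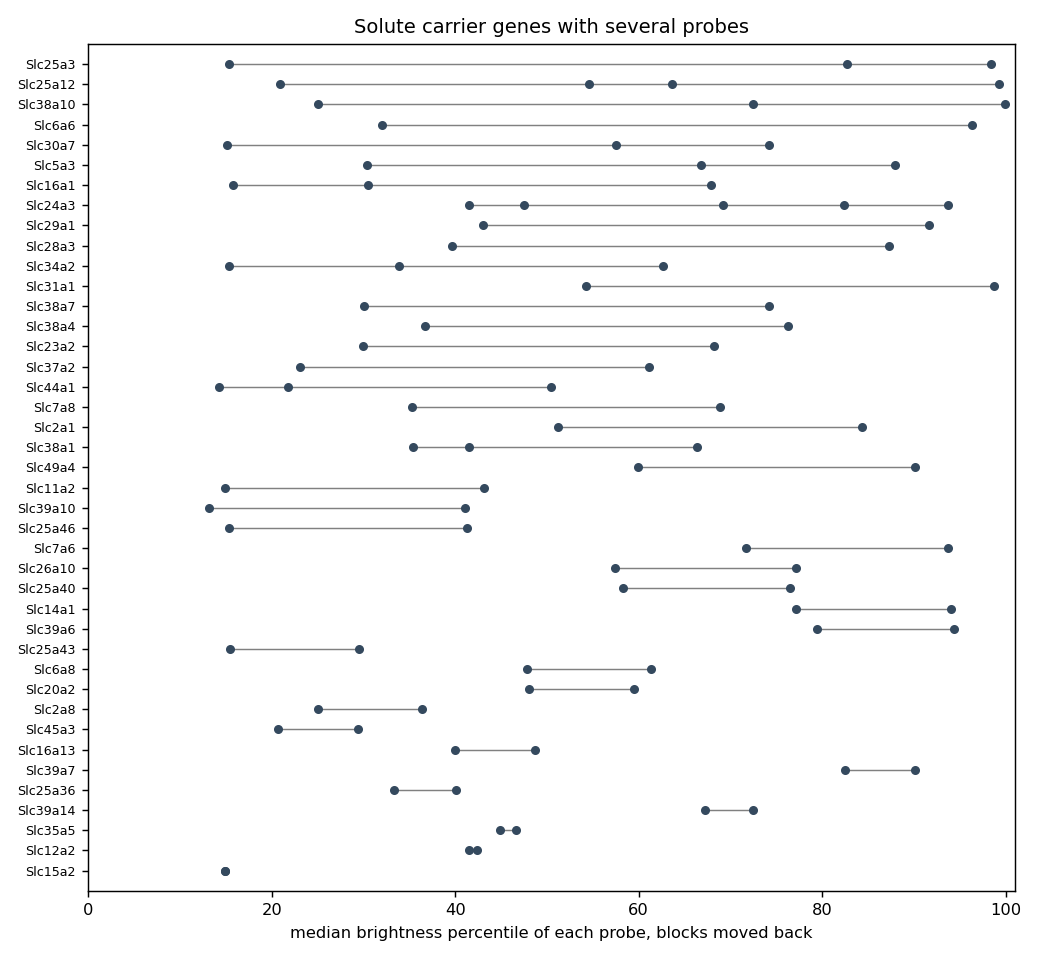
Median brightness percentile (x axis) of every probe of the 41 solute carrier genes with several measured probes, with displaced blocks moved back; each point is 1 probe, joined by a line within a gene, and genes are ordered by the gap between their probes. The gaps run from near 0 for Slc15a2 to the span from 15.4 to 98.4 for Slc25a3.

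Amodiaquine against vehicle was the only comparison with 2 scans of opposite dye labels. Both arrays measured 400 probes, each in register and with both dyes above background, and limma called 0 of them (0%) at an adjusted p under 0.05 and 0 at an unadjusted p under 0.05. With 2 arrays and 1 residual degree of freedom this says little about any gene. The labels put treated RNA in opposite dyes, yet the log2 ratio of Cy5 over Cy3 correlated at 0.77 between the arrays over the 400 probes. Across probes this is a description, and it was 0.29 with loess over the whole array, 0.33 with the authors' deposited log ratios and 0.54 with all 48 blocks. Cy5 over Cy3 was past 1.5-fold the same way on both arrays for 116 probes (29.0%) and for 0 of the 5 members. After turning by the labels this held for 0 probes. The split by dye rests on the loess within blocks. With loess over the whole array 91 probes were past 1.5-fold the same way by dye and 76 by label. With the authors' deposited log ratios these were 107 and 57. Counting spots with a recorded background of 0 gave 762 probes and 9 members, with 0 calls. Of these members 2 were past 1.5-fold the same way by dye. They were Slc14a1 (Cy5 over Cy3 -2.41 and -2.11) and Slc22a15 (-2.44 and -1.87).

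The 5 members tested were Slc25a5, Slc6a6, Slc7a7, Slc6a19 and Slc5a3, and each had an adjusted p of 0.9999 (limma, Benjamini-Hochberg). For Slc25a5 the log2 ratio of treated over vehicle was -0.63 on replicate 1 and 0.26 on replicate 2. Its mean was -0.18 ± 0.48 (moderated SE of limma, n = 2). This SE takes in the spread of all tested probes, so it is not the scatter of a gene's own 2 values. For Slc7a7 the log2 ratio was 0.53 and -0.45, with a mean of 0.04 ± 0.50. Slc6a6 gave 0.33 and -0.05 (mean 0.14 ± 0.42) and Slc6a19 gave 0.25 and -0.23 (mean 0.01 ± 0.43). In these 4 genes the arrays had opposite signs once turned by the labels. Slc5a3 had the same sign on both, -0.18 and -0.14, with a mean of -0.16 ± 0.41. These patterns of sign depended on the normalization. With loess over the whole array Slc25a5 was below 0 on both arrays, at -0.56 and -1.76 (mean -1.16), and with the authors' deposited log ratios at -0.33 and -1.47 (mean -0.90). Slc5a3 took opposite signs under these settings, at -0.55 and 0.10 with loess over the whole array and at -0.74 and 0.64 in the authors' deposited values. The signs of the means of Slc6a6, Slc6a19 and Slc7a7 changed under at least 1 setting. Moving displaced blocks back raised the tested probes to 723 and the members to 9, again with 0 calls (0%), and 227 probes (31.4%) were past 1.5-fold the same way by dye. There the brightest Slc38a10 probe gave 2.49 on replicate 1 and -0.12 on replicate 2.

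In the SP scan 19 members were above background in both dyes. Cy5 over Cy3 was past 1.5-fold in 5 of them, 1 toward Cy5 and 4 toward Cy3, against 20.6% of 1633 probes. With 1 scan there is no replicate check. The log2 ratio was lowest for Slc14a1 at -1.30, followed by Slc24a3 at -0.78, Slc22a15 at -0.76, Slc25a5 at -0.72 and Slc25a12 at -0.18. It was highest for Slc6a6 at 0.63, followed by Slc25a10 at 0.57, Slc7a7 at 0.53, Slc22a23, an orphan member of the organic ion transporters, at 0.48 and Slc39a6 at 0.43. The median of the 19 members was 0.07, as it was for all 1633 probes. In the other file of the same scan no member was in register with both dyes above background.

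In the Amodiaquine+SP scan 18 members were above background in both dyes, and 1 was past 1.5-fold, against 18.3% of 1679 probes. That member was Slc25a12, at a log2 ratio of -0.74. Next were Slc31a1 at -0.49, Slc24a3 at -0.24, Slc22a5 at -0.10 and Slc25a5 at -0.07. The highest were Slc25a20 at 0.42, Slc25a22 at 0.40, Slc39a1 and Slc38a9, a lysosomal amino acid transporter, both at 0.38, and Slc25a10 at 0.19. The count past 1.5-fold ran from 0 to 4 under other processing.

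Set side by side across scans, with displaced blocks moved back, several members leaned toward the same dye in each scan that measured them. Slc14a1 had log2 Cy5 over Cy3 ratios of -2.11 in Amodiaquine replicate 2, -1.30 in SP and -1.30 in Amodiaquine+SP. Slc22a15 had -1.87, -0.76 and -1.24 in these scans. Both probes lie in 1 spot block, and another member of that block, Slc39a7, had percentiles of 89.6 in Cy3 and 89.7 in Cy5 in Amodiaquine replicate 2. In Amodiaquine+SP the rank correlation of the dyes in that block was 0.45, under the minimum of 0.5 for a block in register. Under the second register definition the amodiaquine readings of both probes would not count. Slc25a12 gave -0.85, -0.18 and -0.74. Slc25a5 was below 0 in all 4 scans, from -0.72 to -0.07, with loess within blocks, but in Amodiaquine replicate 2 it was 1.76 with loess over the whole array and 1.47 in the authors' deposited values. Slc6a6 was above 0 in all 4, from 0.05 to 0.63, with loess within blocks. Under the same alternatives it was 2.19 and 1.94 in Amodiaquine replicate 2, and -0.01 and -0.11 in Amodiaquine+SP. Slc7a7 gave 0.53, 0.45 and 0.53 in Amodiaquine replicate 1, Amodiaquine replicate 2 and SP. The labels put treated RNA in different dyes in the amodiaquine arrays, so for Slc7a7 a ratio above 0 means higher in treated RNA on one array and lower on the other.

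A pair of members had a distant value in Amodiaquine replicate 1 with displaced blocks moved back. The brightest Slc38a10 probe had 2.49 in Amodiaquine replicate 1, against 0.12, -0.03 and -0.01 in Amodiaquine replicate 2, SP and Amodiaquine+SP. With loess over the whole array its value in Amodiaquine replicate 2 was 1.61. Slc49a4, a lysosomal transporter, had -2.11 in Amodiaquine replicate 1, against 0.03 and 0.13 in SP and Amodiaquine+SP. In Amodiaquine replicate 1 their blocks were not displaced, but the rank correlation of the dyes was 0.41 in the block of Slc38a10 and 0.49 in that of Slc49a4, under the minimum of 0.5 for a block in register. The part of this low correlation in these values was not tested. Another Slc38a10 probe, in a different block, was above background in both dyes only in Amodiaquine replicate 2, at -2.05. Without the filter on dim probes it had -2.46 in Amodiaquine replicate 1. Under the second register definition its block was 1 column off on both amodiaquine arrays, so neither value would count.

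**Figure D4:**
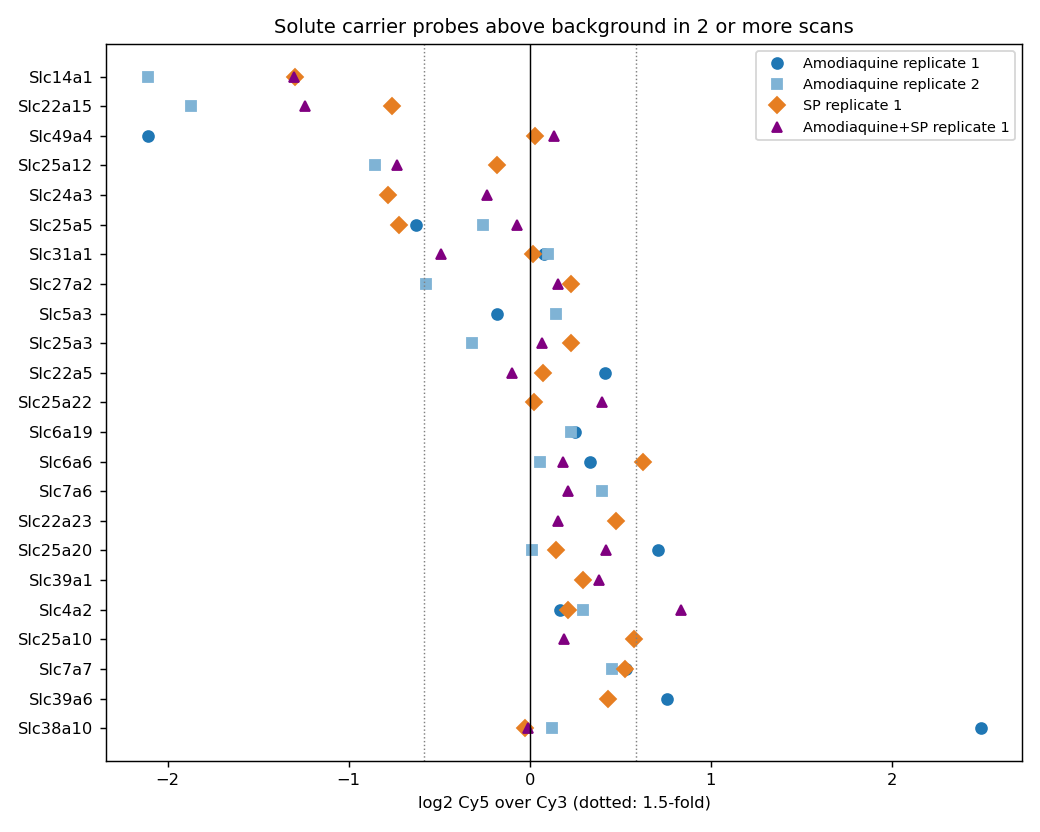
Log2 ratio of Cy5 over Cy3 (x axis) of the solute carrier probes above background in both dyes of at least 2 scans, with displaced blocks moved back and 1 marker per scan; dotted lines mark 1.5-fold. Ratios are from loess within blocks; Slc14a1 and Slc22a15 lie below -0.7 in every scan shown, and Slc38a10 and Slc49a4 each have 1 distant point, both from Amodiaquine replicate 1.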

How the data were processed

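Kidney RNA was measured on 6 two-colour arrays. Per the series' design text, images were taken with ImageQuant 5.0 and spots measured with ArrayVision 8.0. The deposited scanner files give foreground, background and background-corrected intensity per spot and dye, with no normalization, and a signal-to-noise score. The authors' deposited log2 ratios were LOWESS-normalized in Avadis 4, per the design text. Their slope on the scanner ratios was 0.959 to 0.994 on replicate 1 and -0.993 to -0.970 on replicate 2, so their sign follows the labelled dyes; base 2 is inferred from these slopes, and their centring (medians -0.0684 to 0.115) is not stated in the labels.

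Names came from the platform's probe table through a block order that had been chosen on brightness, proximal tubule markers included. At the named positions 216 ribosomal and respiratory chain probes had a mean percentile of 77.1, against at most 58.8 at any of the other positions tried and 55.9 with names by spot number. In 6 of 47 blocks with such probes they ranked higher 1 row or column away, by over 10 percentiles in 2 (blocks 17 and 22), so names are less sure there; block 17 holds Slc4a2, Slc12a7 and 1 probe each of Slc6a6, Slc15a2 and Slc20a2. Members and lists were chosen with earlier results of these data known.

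For each block and dye, the displacement of the grid (up to 3 rows or columns) was found by rank correlation with arrays of the other treatments. The displacements of those arrays were themselves taken into account, in repeated rounds. The most frequent displacement of a block over all files and dyes then counted as 0. A block was in register when both dyes had no displacement on this scale and their rank correlation was at least 0.5. This definition was the third tried and was chosen after seeing how many blocks each left, before any value of a solute carrier was read. The reading with displaced blocks moved back (mean correlation at least 0.25, no minimum on the dyes' rank correlation) and the second definition were alternatives added after seeing the data. The minimum of 0.25 was not varied. The second definition took displacement from the mean correlation with the other arrays as they stood. It left 17 and 21 blocks in register in Amodiaquine replicates 1 and 2, 35 in SP and 30 in Amodiaquine+SP.

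Ratios used normexp background correction (offset 50) and loess within blocks, and probes with a signal-to-noise ratio of at least 2 in both dyes. The amodiaquine arrays were tested with limma 3.58.1 in R 4.3.3, with the sign turned by the labelled dyes; the procedure was tested on simulated data. Loess within blocks gave narrower ratios than whole-array loess, which was an alternative (SD over probes 0.724 against 1.07 in Amodiaquine replicate 2). Repeated scans counted once, so the SP and Amodiaquine+SP ratios have no test. SP replicate 1 lacked a background at 58 spots, which were left out of ratios. Named genes were the 10 brightest and 5 dimmest members, tubule members above background in both dyes of a scan, all tested members, and the 5 highest and lowest ratios in the SP and Amodiaquine+SP scans; others were named after their values were seen. The number of arrays limits the precision. The p-values rest on the spread between these arrays, with each probe's spread moderated by limma toward that of all tested probes. In the amodiaquine fit this prior had 2.06 degrees of freedom, against 1 residual degree of freedom.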

Additional observations from a re-analysis of the deposited data

How the results depend on the processing

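The mean of the members' median percentile was 51.9 and kept within 1 SD of it under 10 of 11 alternatives; with the other file of each repeated scan it was 44.8, where few blocks were in register, and leaving out each scan gave 51.1 to 52.6. The tubule difference of 16.5 stayed within 1 SD under 10 of 11 alternatives (11.8 to 19.5 leaving out each scan, 12.1 with blocks moved back, 16.7 under the second register definition), and with names by spot number it was 0.84. The amodiaquine fit made 0 calls under every alternative run; the members' median log2 ratio was -0.14 and 0.25 on each array alone. With the dye orientation as replicate block over all 6 arrays, which counts repeated scan files as separate arrays, it was 0.01 with 0 calls. The pairing of replicate numbers is that of the labelled dye swap, and the block changed no call. Slc6a19 turned to -0.12 with whole-array loess and to -0.0006 with plain background subtraction, Slc6a6 to -0.94 with whole-array loess and -0.76 with the authors' values, and Slc7a7 to -0.0514 with whole-array loess; the cause was not tested. The SP count of 5 became 3 in the other file moved back. The Amodiaquine+SP count of 1 became 2 with whole-array loess, 2 with background subtraction, 3 with the authors' values, 4 with blocks moved back, 0 in the other file (1 member measured) and 3 in that file moved back; the cause was not tested. The other SP file gave no ratio, since no member in register there was above background in both dyes.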
